A study of Mus musculus and Homo sapiens with 12 samples.

Results

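The BCL2 family decides whether the mitochondrial outer membrane of a cell stays closed or is opened, and 10 of its genes were followed in blood progenitors in which the RNA helicase DDX21 was deleted or knocked down. They were taken by gene symbol, without regard to case, as 3 pro-survival genes (BCL2, BCL2L1 and MCL1) and 7 pro-death genes (BAX, BAK1, BBC3, PMAIP1, BID, BCL2L11 and BAD). All 10 were found in both species, among 55487 mouse and 78932 human genes listed, and all 10 passed the filter on low counts in both. Of the genes listed, 28993 in the mouse and 47059 in the human experiment had any read. The mouse groups were Kit-bearing progenitors without lineage markers (LK cells), sorted alive from E13.5 fetal liver. WT embryos were Ddx21f/f without Cre, so the control also carried the loxP-flanked alleles, and cKO embryos were Vav-Cre; Ddx21f/f, with Cre under a promoter active in blood cells. The human groups were blood stem cell-like cells made from the embryonic stem cell line H1 with a differentiation kit. Both were transduced with lentivirus, shNC-mCherry in the control and shDDX21-mCherry in the knockdown, and live CD34+, CD45+, CD43+ cells carrying the vector were sorted 2 days after transduction. Each of the 4 groups had 3 libraries of polyadenylated RNA, 12 in all. The labels name 1 hairpin against DDX21 and 1 human line, and they do not say whether replicates came from separate embryos, pools or cultures, so the p-values measure only the spread between these libraries, which may be technical.

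BAX and BAK1 are the effectors that assemble into pores and let cytochrome c out of mitochondria. BCL2, BCL-XL (the main product of BCL2L1) and MCL1 hold the effectors in check. The BH3-only proteins PUMA (from BBC3), NOXA (from PMAIP1), BID, BIM (from BCL2L11) and BAD bind the pro-survival proteins, and some of them also engage the effectors directly. NOXA is known for binding MCL1 in preference to BCL-XL, and BAD for the opposite choice. MCL1 is known as a survival factor of blood stem and progenitor cells.

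Library totals were 21116079 to 23898130 counts in the mouse and 15289510 to 19798608 in the human experiment. Levels are given as CPM, edgeR's depth-normalised count with TMM scaling. Folds come from edgeR's quasi-likelihood test, and a gene counts as called where its p, adjusted by Benjamini-Hochberg over all genes tested, is under 0.05. Ddx21 was at 1410, 1431 and 1432 CPM in WT and at 276, 283 and 282 CPM in cKO. DDX21 was at 477, 465 and 468 CPM in shNC and at 68.6, 69.2 and 67 CPM in shDDX21. Kit was at 359, 360 and 368 CPM in WT and at 312, 322 and 317 CPM in cKO. CD34 was at 245 to 251 CPM in shNC and 296 to 299 CPM in shDDX21. Kit and CD34 were thus read in both groups of their experiment, and levels for CD45 and CD43 are not given here. Of 11 stem and progenitor identity genes tested in the mouse, 4 rose and 3 fell, where 36.5% of all genes tested were called. Of 9 tested in the human cells, 5 rose and 4 fell, where 52.7% were called.

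In mouse LK cells 5 members rose with loss of Ddx21, 1 fell and 4 did not pass the test. Across all 14918 genes tested 36.5% were called, 20.7% higher and 15.8% lower. The gene for NOXA moved most, to 8.24 times its WT level, followed among the called members by Bax at 2.07 times, Bcl2l1 at 1.52 times, Bid at 1.25 times and Mcl1 at 1.16 times. Bcl2l11 fell to 85.8% of WT. The CPM ranges of WT and cKO did not overlap for 7 of the 10, where 49% of all genes tested did not overlap. The members' median log2 fold change was 0.27, beside 0.000574 over all genes tested. At 2-fold as well, Bax and Pmaip1 were called higher, where 7.27% of all genes tested were. These are bulk libraries, in which fewer cells of a type and less RNA per cell cannot be told apart.

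**Figure D1:**
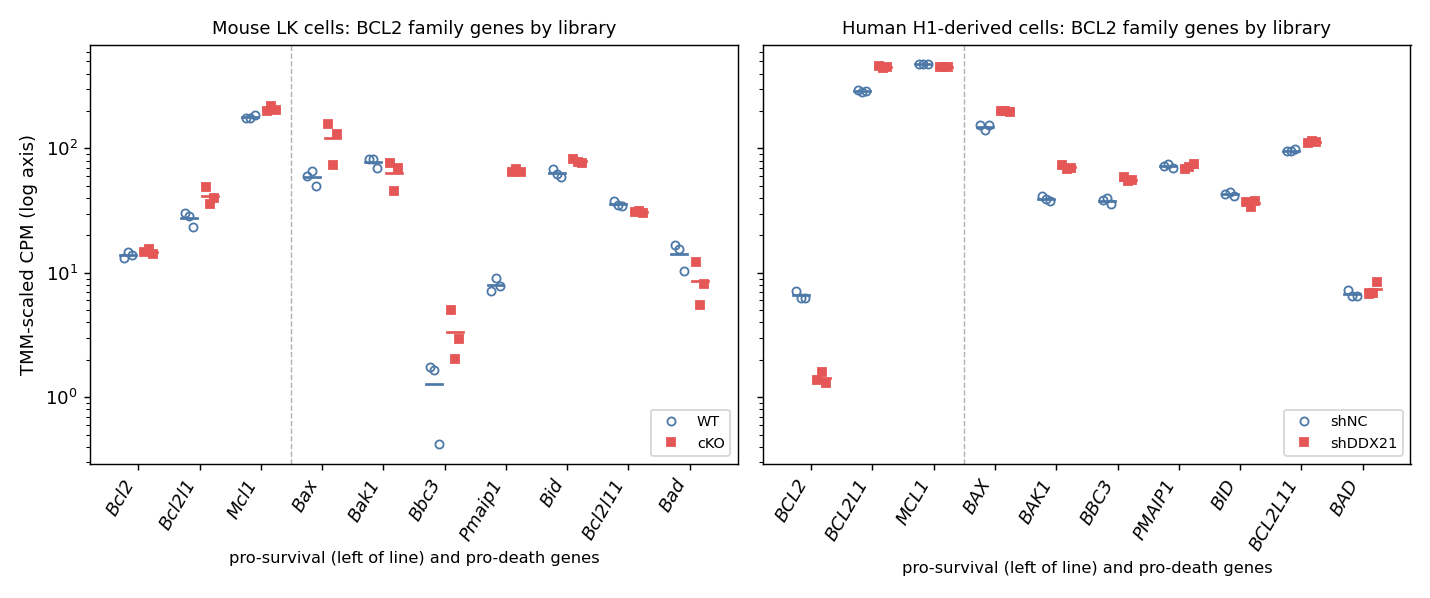
Each point is 1 library's level of 1 gene in CPM on a log axis, with the group mean as a bar; mouse WT and cKO are on the left, human shNC and shDDX21 on the right. Pmaip1 stands at 7.13 to 9.05 CPM in WT and 64.5 to 68 CPM in cKO, whereas PMAIP1 stands at 69.1 to 75.3 CPM in shNC and 68.8 to 75.2 CPM in shDDX21.

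Pmaip1 (ENSMUSG00000024521, mm10 chromosome 18, 66458533 to 66465565, plus strand) was read at 7.13, 9.05 and 7.8 CPM in WT and at 64.5, 68 and 65.1 CPM in cKO. These levels rest on 159, 186 and 168 counts in WT and 1480, 1678 and 1436 counts in cKO. Every cKO library lay far above every WT library, and the 3 cKO libraries differed by little among themselves, with a coefficient of variation of 2.86%. The log2 fold change was 3.04 (SE 0.093, edgeR adjusted p = 1.41e-06). It lay between 2.96 and 3.14 under every one of the 18 alternatives tried.

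Bax (ENSMUSG00000003873, mm10 chromosome 7, 45461697 to 45466898, minus strand), an effector, was at 59.8, 65.9 and 49.7 CPM in WT and at 159, 73.2 and 131 CPM in cKO. All 3 cKO libraries were above all 3 WT libraries, but cKO replicate 2 stood only just above the highest WT library. The log2 fold change was 1.05 (SE 0.26, edgeR adjusted p = 0.0185). Without cKO replicate 2 it was 1.32 (adjusted p = 2.51e-04), and the call was lost without WT replicate 1 (1.06, adjusted p = 0.0572) and without cKO replicate 3 (0.99, adjusted p = 0.0681). Bak1 (ENSMUSG00000057789), the other effector, was at 81.8, 81.8 and 70.2 CPM in WT and at 76.1, 45.6 and 69.5 CPM in cKO. The groups overlapped, cKO replicate 2 again being the lowest, and the log2 fold change of -0.29 (SE 0.18, edgeR adjusted p = 0.235) did not pass the test.

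Bbc3, the gene for PUMA (ENSMUSG00000002083, mm10 chromosome 7, 16308393 to 16318205, plus strand), was the member with the fewest counts, 39, 34 and 9 in WT and 116, 50 and 65 in cKO. That put it at 1.75, 1.66 and 0.418 CPM in WT and at 5.05, 2.03 and 2.95 CPM in cKO. The groups did not overlap, yet WT replicate 3 lay well under the other WT libraries and cKO replicate 1 well above the other cKO libraries. The fold was larger than that of Bax and its error larger still, a log2 fold change of 1.38 (SE 0.50, edgeR adjusted p = 0.0667), so it did not pass the test. DESeq2 1.42.0, which called 30.1% of all genes tested, called it on the same counts, at 1.38 (adjusted p = 0.0111).

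Bid (ENSMUSG00000004446), which caspase-8 cleaves to link death receptors to mitochondria, was at 68.7, 62.4 and 58.5 CPM in WT and at 82.6, 78.3 and 76 CPM in cKO. The groups were apart, with a log2 fold change of 0.32 (SE 0.069, edgeR adjusted p = 0.00964). The gene for BIM, Bcl2l11 (ENSMUSG00000027381), went the other way, from 38.1, 35.2 and 34.7 CPM in WT to 30.8, 31.5 and 30.4 CPM in cKO. The groups did not overlap, but the step was small, -0.22 (SE 0.062, edgeR adjusted p = 0.0276). Its call was lost without WT replicate 1 (adjusted p = 0.101), WT replicate 2 (0.0654), cKO replicate 1 (0.0583) or cKO replicate 3 (0.1), and in DESeq2 (0.0607). Bad (ENSMUSG00000024959) was at 16.8, 15.4 and 10.3 CPM in WT and at 12.2, 5.47 and 8.16 CPM in cKO. Its groups overlapped, and the log2 fold change of -0.72 (SE 0.30, edgeR adjusted p = 0.101) did not pass the test, whereas DESeq2 called it at -0.73 (adjusted p = 0.0148).

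Among the pro-survival genes, Bcl2l1 (ENSMUSG00000007659, mm10 chromosome 2, 152780668 to 152831728, minus strand) was at 30.3, 28.6 and 23.3 CPM in WT and at 48.6, 36 and 40.1 CPM in cKO. Every cKO library exceeded every WT library, with a log2 fold change of 0.60 (SE 0.14, edgeR adjusted p = 0.0129). Mcl1 (ENSMUSG00000038612) was at 177, 176 and 185 CPM in WT and at 200.1, 220 and 205 CPM in cKO. Its rise was smaller and its libraries closer together, 0.22 (SE 0.046, edgeR adjusted p = 0.00929). Both calls stayed past the threshold in all alternatives tried except the 2-fold cutoff. Bcl2 (ENSMUSG00000057329) was at 13.1, 14.7 and 14 CPM in WT and at 14.8, 15.4 and 14.2 CPM in cKO, with overlapping groups and a log2 fold change of 0.09 (SE 0.08, edgeR adjusted p = 0.428).

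The spread of Bax, Bbc3, Bak1, Bad and Bcl2l1 within a group ran with the base composition of the libraries. Base composition is measured here as the GC content (share of G and C) of a gene's longest transcript, which is 63.5% for Bax and 65.2% for Bbc3, 57.1% for Bak1 and Bad, 55.9% for Bcl2l1 and 42.1 to 51.3% for the other 5. Libraries were compared over genes with a GC value and a mean of at least 10 counts over the 6 libraries. For the 424 of these with at least 60% GC, the median log2 deviation from the mean of the 6 libraries was taken. It was 0.35, 0.22 and -0.21 in WT replicates 1, 2 and 3 and 0.20, -0.39 and -0.15 in cKO replicates 1, 2 and 3. Below 45% GC, over 4185 genes that include Pmaip1, the same medians lay between -0.04 and 0.07. GC-rich genes were thus read high in WT replicates 1 and 2 and cKO replicate 1, and low in WT replicate 3 and cKO replicate 2. In those last libraries Bax, Bbc3, Bak1, Bad and Bcl2l1 were lowest within their groups. The size of the spread did not follow GC throughout. In WT the coefficient of variation was 8.61% for Bak1 and 12.2% for Pmaip1.

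To make the difference in composition visible, the first 60 coding bases of Bax, Bbc3 and Bcl2l11 follow, 5′ to 3′ from the start codon in GENCODE M21 on mm10, with G and C in capitals. They hold 66.7%, 73.3% and 46.7% GC, and the whole coding sequences hold 59.2%, 72.2% and 55.6%. Coding GC was read only for these genes and Mcl1, and in Mcl1 it did not follow transcript GC. Mcl1, not shown, holds 63.3% in its first 60 coding bases and 64.7% in its coding sequence, but 48.7% in its longest transcript. Its CPM had a coefficient of variation of 2.64% in WT and 4.89% in cKO.
Bax: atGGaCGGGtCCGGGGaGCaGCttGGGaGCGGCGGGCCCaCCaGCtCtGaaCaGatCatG
Bbc3: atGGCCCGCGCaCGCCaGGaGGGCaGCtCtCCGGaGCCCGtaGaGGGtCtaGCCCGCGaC
Bcl2l11: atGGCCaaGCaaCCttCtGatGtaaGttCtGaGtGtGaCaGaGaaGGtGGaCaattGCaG

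**Figure D2:**
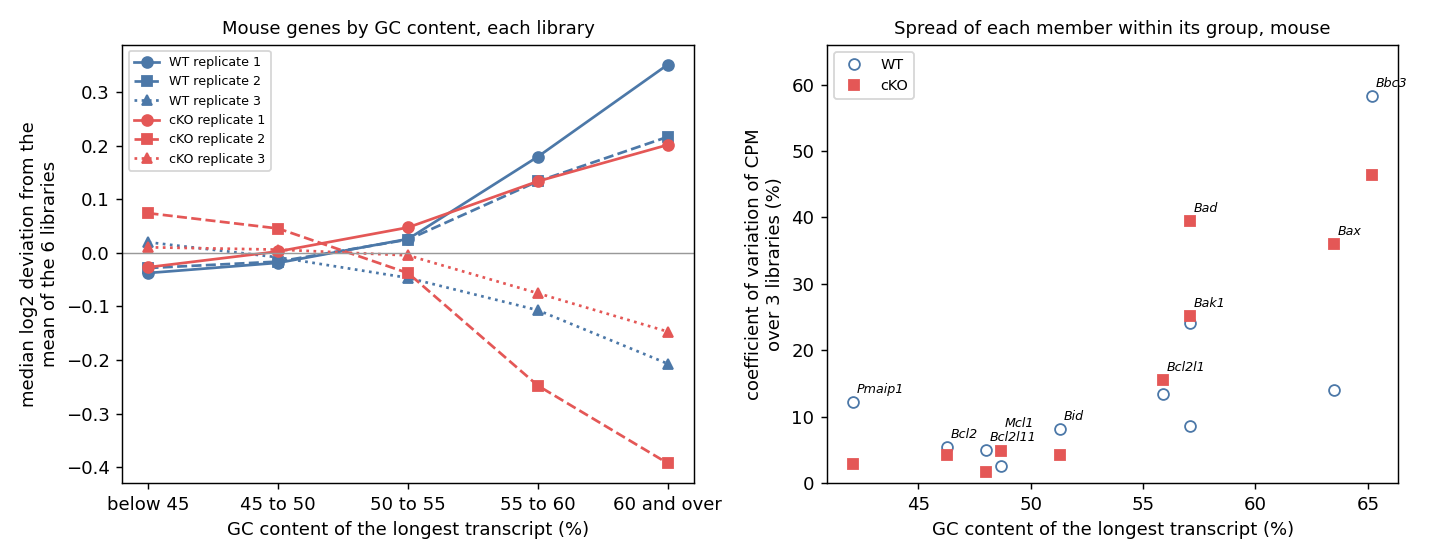
Left, the median log2 deviation of genes in 5 classes of GC content, 1 line per mouse library; right, the coefficient of variation of CPM over the 3 libraries of a group against GC content, 1 point per member and group. In the class of 60% and over the lines run from -0.39 (cKO replicate 2) to 0.35 (WT replicate 1), and the widest spread on the right is that of Bbc3, 58.3% in WT and 46.4% in cKO.

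With a per-library offset that takes out this trend, an alternative chosen after seeing the data, 6 members were called higher and 2 lower, where 44.7% of all genes tested were called, 25.8% higher and 18.8% lower. Bax then had a log2 fold change of 1.47 (SE 0.14, edgeR adjusted p = 4.01e-05). Bbc3 passed the test at 1.91 (SE 0.24, edgeR adjusted p = 2.86e-04), and so did Bad, lower at -0.52 (SE 0.17, edgeR adjusted p = 0.0337). Bak1 moved to -0.10 (adjusted p = 0.397) and Bcl2l1 to 0.76 (adjusted p = 1.24e-05). Pmaip1 stayed at 3.04, Mcl1 at 0.22 and Bid at 0.34. Fitting only WT replicates 1 and 2 against cKO replicates 1 and 3, without the library in each group that read GC-rich genes lowest, called 38.9% of all genes tested and gave 1.21 for Bax (SE 0.09), 1.24 for Bbc3 (adjusted p = 0.0117) and -0.65 for Bad (adjusted p = 0.0198). An offset of this kind would also remove a change shared by GC-rich genes.

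**Figure D3:**
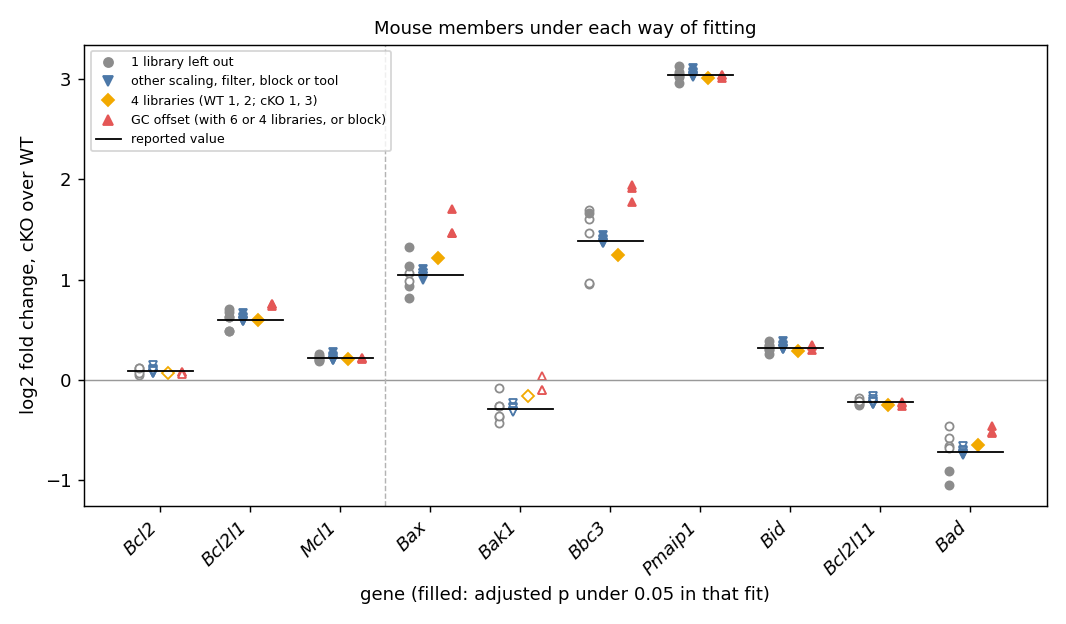
For each mouse member, the log2 fold change of cKO over WT as reported (line) and under each alternative fit (points, filled where the adjusted p is under 0.05). Bax runs from 0.82 to 1.70, Bbc3 from 0.96 to 1.94 and Bad from -1.05 to -0.46, while Pmaip1 keeps to 2.96 to 3.14 and Mcl1 to 0.19 to 0.28.

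Levels of different genes were compared per length, as RPKM (counts per kilobase of deposited exon length per unit of scaled library size; mean ± SD, n = 3), with no test between genes. In WT the order ran from Mcl1 (52.4 ± 1.38) through Bax (37.1 ± 5.18), Bak1 (32.4 ± 2.79) and Bid (17.8 ± 1.45) to a middle group of Bcl2l1 (5.97 ± 0.803), Bad (5.54 ± 1.34) and Bcl2l11 (4.48 ± 0.227). Pmaip1 (2.93 ± 0.357), Bcl2 (1.52 ± 0.083) and Bbc3 (0.6 ± 0.35) came last. Bax and Bak1, Bcl2l1 and Bad, and Bad and Bcl2l11 did not differ beyond their spread. In cKO, Pmaip1 was at 24.1 ± 0.69 RPKM and in the fourth place, next to Bak1 at 26.5 ± 6.67 RPKM and Bid at 22.2 ± 0.945 RPKM. Bax reached 76.7 ± 27.6 RPKM, a spread wide enough to include Mcl1 at 60.9 ± 2.98 RPKM.

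Ratios taken within a library follow the same genes. Mcl1 exceeded Pmaip1 by 19.9, 15.5 and 18.9 times in the WT libraries and by 2.48, 2.58 and 2.52 times in the cKO libraries, as RPKM. The Bax to Bak1 ratio was 1.12, 1.23 and 1.08 in WT and 3.18, 2.45 and 2.88 in cKO, so cKO replicate 2, low for both genes, lay apart from WT in the ratio. Mcl1 made up 86.6%, 86.8% and 89.1% of the summed pro-survival RPKM in WT and 82.7%, 87.1% and 85.3% in cKO, ranges that overlap. The summed pro-death RPKM exceeded the summed pro-survival RPKM by 1.77, 1.82 and 1.46 times in WT and by 2.69, 1.62 and 2.36 times in cKO, so the groups overlapped, cKO replicate 2 lying within the WT range. These ratios are of transcripts, and no protein was measured.

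In the human cells 5 members rose on knockdown of DDX21, 3 fell and 2 did not pass the test. The background was high, 52.7% of 20188 genes tested, with 25.3% called higher and 27.4% lower. BAK1 rose to 1.78 times shNC, BCL2L1 to 1.55 times, BBC3 to 1.48 times, BAX to 1.33 times and BCL2L11 to 1.17 times. BCL2 fell to 21.7% of shNC, BID to 84.7% and MCL1 to 94.1%. The CPM ranges of the groups did not overlap for 8 of the 10, where 57.3% of all genes tested did not overlap, and the members' median log2 fold change was 0.17, beside 0.00519 over all genes tested. At 2-fold as well, BCL2 alone of the 10 was called, lower, where 3.83% of all genes tested were. The human libraries lay close together, with an estimated biological coefficient of variation of 2.23% beside 10.5% in the mouse, so small steps pass the test here.

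BCL2 (ENSG00000171791, hg38 chromosome 18, 63123346 to 63320128, minus strand) had the largest human change. It was at 7.2, 6.33 and 6.25 CPM in shNC and at 1.39, 1.6 and 1.31 CPM in shDDX21, from 136, 97 and 111 counts and 27, 27 and 23 counts. Every knockdown library lay far below every shNC library, and the fitted log2 change was -2.20 (SE 0.18, edgeR adjusted p = 1.8e-17). BCL2L1 (ENSG00000171552, hg38 chromosome 20, 31664452 to 31723989, minus strand) was at 297, 287 and 288 CPM in shNC and at 458, 442 and 454 CPM in shDDX21. The groups were well apart, with a log2 fold change of 0.64 (SE 0.024, edgeR adjusted p = 6.93e-36). MCL1 (ENSG00000143384) was at 473, 480 and 477 CPM in shNC and at 448, 449 and 449 CPM in shDDX21. Its step was small, -0.09 (SE 0.022, edgeR adjusted p = 5.2e-04), and with upper-quartile scaling it was -0.02 (adjusted p = 0.52).

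Both effectors rose. BAK1 (ENSG00000030110) was at 41.5, 39 and 37.9 CPM in shNC and at 73.5, 68.2 and 69.8 CPM in shDDX21, with no overlap (log2 fold change 0.84, SE 0.048, edgeR adjusted p = 1.4e-25). BAX (ENSG00000087088) was at 154, 140 and 155 CPM in shNC and at 199.5, 199.5 and 197 CPM in shDDX21, also with no overlap (0.41, SE 0.031, edgeR adjusted p = 1.57e-19). The BAX to BAK1 ratio as RPKM was 3.06 to 3.5 in shNC and 2.32 to 2.5 in shDDX21, lower in every knockdown library.

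Of the BH3-only genes, BBC3 (ENSG00000105327) was at 38.4, 40.1 and 35.8 CPM in shNC and at 58.5, 54.7 and 55.6 CPM in shDDX21 (log2 fold change 0.57, SE 0.051, edgeR adjusted p = 5.27e-16). BCL2L11 (ENSG00000153094) rose from 95 to 98.4 CPM in shNC to 111 to 116 CPM in shDDX21, by 0.23 on the log2 scale (SE 0.035, edgeR adjusted p = 2.75e-08), and BID (ENSG00000015475) fell by 0.24 (SE 0.055, edgeR adjusted p = 1.36e-04), from 41.4 to 44.7 CPM to 33.7 to 38 CPM. PMAIP1 (ENSG00000141682, hg38 chromosome 18, 59899996 to 59904305, plus strand) was at 72.6, 75.3 and 69.1 CPM in shNC and at 68.8, 70.7 and 75.2 CPM in shDDX21. The groups overlapped throughout, with a log2 fold change of -0.01 (SE 0.042, edgeR adjusted p = 0.792). BAD (ENSG00000002330) was at 7.3, 6.46 and 6.53 CPM in shNC and at 6.83, 6.88 and 8.43 CPM in shDDX21, also overlapping (0.12, SE 0.13, edgeR adjusted p = 0.45).

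Per length, the human order in shNC began with MCL1 (76.6 ± 0.546 RPKM), BCL2L1 (69.2 ± 1.29), BAX (57.8 ± 3.24) and PMAIP1 (33.1 ± 1.41), followed by BAK1 (17.9 ± 0.848), BCL2L11 (13.8 ± 0.267), BBC3 (12 ± 0.689), BID (9.71 ± 0.373), BAD (3.96 ± 0.274) and BCL2 (0.523 ± 0.0417). Neighbours in this order differed beyond their spread. In shDDX21, BCL2L1 (107.5 ± 1.98 RPKM) came before BAX (76.8 ± 0.588) and MCL1 (72.1 ± 0.152), while PMAIP1 (32.7 ± 1.5) and BAK1 (31.9 ± 1.21) no longer differed beyond their spread. The share of BCL2L1 in the summed pro-survival RPKM was 48%, 46.8% and 47.1% in shNC and 60.2%, 59.3% and 59.9% in shDDX21. The share of MCL1 was 51.6%, 52.8% and 52.6% in shNC and 39.7%, 40.6% and 40% in shDDX21. The summed pro-death RPKM was 1.03, 1 and 1.01 times the summed pro-survival RPKM in shNC and 1.04, 1.05 and 1.05 times in shDDX21.

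**Figure D4:**
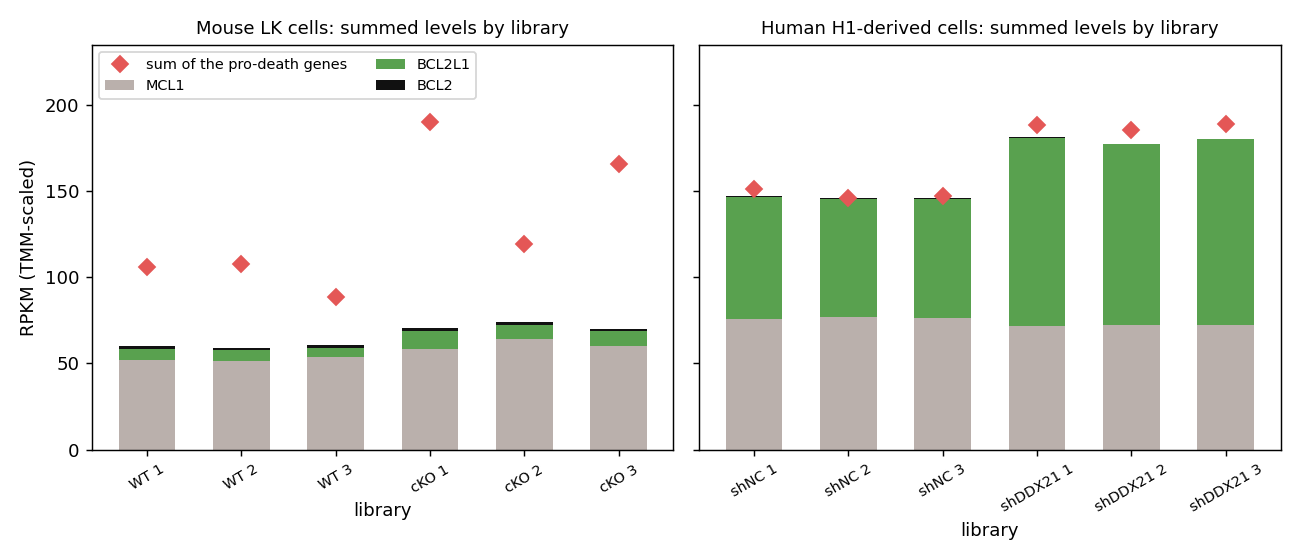
Stacked bars give the RPKM of the 3 pro-survival genes in each library, from 0, and diamonds give the summed RPKM of the 7 pro-death genes. In the human libraries the BCL2L1 part widens from 46.8 to 48% of the bar in shNC to 59.3 to 60.2% in shDDX21, and in the mouse the diamonds lie between 88.6 and 108 in WT and between 119 and 190 in cKO, while their ratio to the bar overlaps between the groups (1.46 to 1.82 in WT, 1.62 to 2.69 in cKO).

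Mouse and human effects were set against each other in 1 fit of all 12 libraries over 10314 genes matched by symbol, of which 56.2% differed. The species, the source of the cells and the kind of perturbation, a gene deletion or a hairpin, cannot be told apart in it. Of the 10 members, 6 differed. PMAIP1 had the largest difference, 3.06 on the log2 scale (mouse minus human, SE 0.099, edgeR adjusted p = 7.12e-10), followed by BCL2 at 2.29 (SE 0.14, edgeR adjusted p = 1.28e-07), where the human gene fell and the mouse gene did not pass the test. BAK1 differed by -1.13 (SE 0.21, edgeR adjusted p = 6.74e-04), the human gene having risen.

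Of the 5 members called in both species, BCL2L1 and BAX were called higher in both. MCL1 and BID were higher in the mouse and lower in the human cells, and BCL2L11 was lower in the mouse and higher in the human cells. The differences were 0.30 for MCL1 (edgeR adjusted p = 2.63e-04), 0.56 for BID (3.27e-04) and -0.45 for BCL2L11 (5.02e-05). The difference was not called for BCL2L1 (-0.03, SE 0.14, edgeR adjusted p = 0.851), BAX (0.64, SE 0.29, 0.0835), BBC3 (0.82, SE 0.45, 0.143) or BAD (-0.84, SE 0.37, 0.0723). With the GC offset in the mouse libraries, under which 61.5% of the matched genes differed, BAX (1.04, edgeR adjusted p = 6.76e-05), BBC3 (1.32, 9.71e-05) and BAD (-0.64, 0.0287) were called as well.

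**Figure D5:**
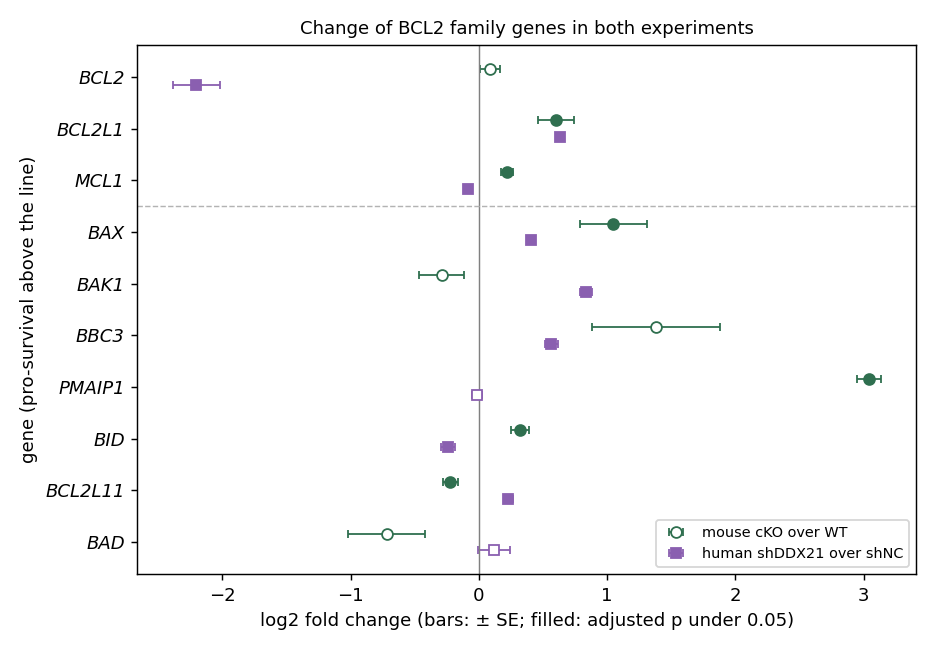
Log2 fold change ± SE of each member in the mouse (circles, cKO over WT) and human (squares, shDDX21 over shNC) experiment, filled where the adjusted p is under 0.05. PMAIP1 (3.04 and -0.01), BCL2 (0.09 and -2.20) and BAK1 (-0.29 and 0.84) are far apart, and BCL2L1 (0.60 and 0.64) lies together.

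Cdkn1a, which encodes the cell cycle inhibitor p21, was read beside the members with Mdm2 and Mdm4, a ubiquitin ligase and its relative. Cdkn1a was at 4.46 to 5.79 CPM in WT and 278 to 293 CPM in cKO (log2 fold change 5.81, SE 0.086, edgeR adjusted p = 5.91e-08), Mdm2 had 2.50 and Mdm4 had 0.82. In the human cells CDKN1A rose by 0.59, MDM2 by 0.28 and MDM4 by 0.19. These 3 genes were picked by name and stand for no list.

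Promoter sequence was examined for the mouse members in the RefSeq table for GRCm38.p6, as windows of 300 bases that run from 250 before to 50 after an annotated start. Pmaip1 was left out of this search, so its promoter was not examined, and the other 9 of the 10 members gave 15 windows. These windows were searched on both strands for CACGTG, for AGATAA and for GGGCGG. Of all 32851 windows in the table, 7.15% held CACGTG, 11.2% AGATAA and 35.7% GGGCGG. Of the 15 windows of the members, 2 held CACGTG, 1 AGATAA and 10 GGGCGG. The members' windows were GC-rich, 13 of the 15 lying above the median GC of all windows, 52.7%. Some members had more than 1 window, and 2 windows of Bbc3 overlap, so the windows are not independent. The 3 windows with CACGTG or AGATAA are shown for where these letters lie, 5′ to 3′ on the gene's strand, with those letters in capitals. They are Bax (chr7:45466849-45467148, minus strand), Bbc3 (chr7:16310181-16310480, plus strand) and Bcl2l1 (chr2:152828440-152828739, minus strand). None of the marked runs overlaps another. A match is a run of letters and was not tested for binding.
Bax: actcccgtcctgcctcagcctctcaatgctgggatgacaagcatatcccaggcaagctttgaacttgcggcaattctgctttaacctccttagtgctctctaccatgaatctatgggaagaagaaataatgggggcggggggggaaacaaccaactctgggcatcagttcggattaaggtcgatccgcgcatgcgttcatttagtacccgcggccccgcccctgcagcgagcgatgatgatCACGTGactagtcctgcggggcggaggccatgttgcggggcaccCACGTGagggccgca
Bbc3: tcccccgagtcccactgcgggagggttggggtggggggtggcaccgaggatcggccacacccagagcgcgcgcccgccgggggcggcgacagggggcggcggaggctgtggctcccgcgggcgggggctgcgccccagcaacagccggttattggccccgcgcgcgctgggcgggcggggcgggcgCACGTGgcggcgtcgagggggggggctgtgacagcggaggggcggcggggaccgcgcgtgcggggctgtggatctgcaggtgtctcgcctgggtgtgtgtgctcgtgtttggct
Bcl2l1: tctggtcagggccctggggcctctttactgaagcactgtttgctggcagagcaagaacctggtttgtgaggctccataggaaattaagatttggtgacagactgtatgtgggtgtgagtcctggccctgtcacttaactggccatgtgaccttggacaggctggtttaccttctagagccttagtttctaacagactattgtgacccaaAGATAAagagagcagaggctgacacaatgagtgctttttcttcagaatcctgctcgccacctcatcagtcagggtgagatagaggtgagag

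The rest of the pathway was counted in 6 further lists, each against the 36.5% of mouse and 52.7% of human genes called. Of the other BCL2 relatives, 1 of 11 tested rose and 1 fell in the mouse (median log2 fold change -0.05), and 4 of 11 rose and 1 fell in the human cells (median 0.17). Bcl2l14 had 0.72 (edgeR adjusted p = 0.0458), a value that ran from 0.52 to 0.89 over the alternatives and missed the threshold in 9 of 18, DESeq2 (adjusted p = 0.16) and 5 of the 6 fits with 1 library left out among them. Bnip3, a mitophagy receptor, fell by 0.55. BMF, a BH3-only gene, rose by 0.63, BCL2L2, which encodes the pro-survival protein BCL-W, by 0.46 and BCL2L13 by 0.40.

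Of the apoptosome genes and caspases, 4 of 14 rose and 4 fell in the mouse, and 2 of 15 rose and 9 fell in the human cells. Apaf1, the scaffold of the apoptosome, was at 74.1, 79.9 and 84.4 CPM in WT and at 178, 187 and 181 CPM in cKO (log2 fold change 1.20, SE 0.054, edgeR adjusted p = 7.95e-06). APAF1 was at 49.9, 55.2 and 50.6 CPM in shNC and at 34.9, 33 and 31.7 CPM in shDDX21 (-0.64, SE 0.054, edgeR adjusted p = 2.97e-17). PARP1, whose product is a caspase substrate, fell by 1.01 in the human cells.

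Of the caspase inhibitors and their antagonists, none of 8 rose and 2 fell in the mouse, and 3 of 9 rose and 6 fell in the human cells. Birc5, which encodes survivin, fell by 0.59, and BIRC5 fell by 1.04. BIRC3 was at 9.62 to 11.9 CPM in shNC and 1.78 to 2.52 CPM in shDDX21, a log2 fold change of -2.27 (SE 0.15, edgeR adjusted p = 2.61e-22), and BIRC6 fell by 0.60. Htra2, a mitochondrial protease released with cytochrome c, had -0.46 (edgeR adjusted p = 0.0148), a value that ran from -0.55 to -0.04 over the alternatives and missed the threshold in 6 of 18. Its longest transcript holds 60.1% GC, and every fit with the GC offset lost the call. With the offset alone Htra2 was at -0.12 (edgeR adjusted p = 0.358). The 13 genes of the mitochondrial channel and membrane partners had no call in the mouse with edgeR as reported and none with DESeq2, with 3 at an unadjusted p under 0.05. The edgeR test called 3 of them with the GC offset and 1 with no filter on low counts, with the replicate number as a block, with the 4 libraries, without WT replicate 3 or without cKO replicate 1. The share of all genes called in those fits ran from 19.2%, with no filter, to 44.7%, with the GC offset. In the human cells 3 of the 13 rose and 5 fell, among them SLC25A5, an ADP/ATP carrier, at 0.30, the fusion gene OPA1 at -0.33 and the fission gene DNM1L at -0.29.

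Of the genes for turnover and phosphorylation of family members, 5 of 16 rose and 2 fell in the mouse, and 3 of 16 rose and 6 fell in the human cells. Pim1, a kinase that phosphorylates BAD, was at 73.6, 67.4 and 68.5 CPM in WT and at 126, 100.1 and 116 CPM in cKO (log2 fold change 0.70, SE 0.085, edgeR adjusted p = 7.22e-04). PIM1 was at 559 to 579 CPM in shNC and 327 to 328 CPM in shDDX21 (-0.79, SE 0.023, edgeR adjusted p = 6.05e-43). Ppp3ca, a subunit of the phosphatase calcineurin, rose by 0.71 and Btrc, a ubiquitin ligase subunit, fell by 0.42. MAPK9 fell by 1.01, and MARCHF5, a mitochondrial ubiquitin ligase, rose by 0.56. Of other transcription factors known to act on family genes, 5 of 16 rose and 7 fell in the mouse, and 9 of 16 rose and 6 fell in the human cells. Egr1 had 3.63, Jun 1.30 and Foxo3, which acts on the gene for BIM, 0.69, and in the human cells MYC had -1.17, FOXO1 0.73 and ATF4 0.39.

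Marker RNA of several cell types moved with the groups, and its part in the members' values was not tested. Whether it came from the sorted progenitors or from other cells was not tested either. Of all genes tested, 20.7% were called higher and 15.8% lower in the mouse, and 25.3% higher and 27.4% lower in the human cells. Several of the counts below lie near these shares. In the mouse, 4 of 5 hepatocyte markers tested rose, with a summed level of 2.6 to 3.16 CPM in WT and 30.8 to 35.2 CPM in cKO, while Apoa1, Apoa2, Serpina1a, Fgb, Fgg and Ahsg did not pass the filter on low counts. Of 7 lymphoid markers tested 6 fell, from 25.9 to 29.7 CPM to 7.98 to 9.06 CPM. Of 13 granulocyte and monocyte markers 9 fell and 1 rose, summing to 762 to 1022 CPM in WT and 403 to 653 CPM in cKO. Of 11 erythroid markers 5 fell and 3 rose (3111 to 3137 CPM in WT, 2098 to 2130 CPM in cKO), and 4 of 8 megakaryocyte markers rose (91.1 to 107 CPM in WT, 143 to 191 CPM in cKO). Endothelial and stromal markers rose in 4 of 6, from 56.3 to 59.8 CPM to 95 to 101 CPM, mast cell markers in 2 of 5, and macrophage markers summed to 7.94 to 8.66 CPM in WT and 7.74 to 9.07 CPM in cKO, with 5 of 10 at no more than 3 counts in every library. In the human cells 8 of 10 granulocyte and monocyte markers fell and 2 rose (985 to 992 CPM in shNC, 787 to 802 CPM in shDDX21). The lymphoid sum was 33.3 to 36.1 CPM in shNC and 11.3 to 12.7 CPM in shDDX21, with 1 of 4 markers lower. Of 11 human erythroid markers 5 rose and 3 fell (1884 to 1899 CPM in shNC, 1463 to 1486 CPM in shDDX21). Of 6 human megakaryocyte markers 2 rose and 3 fell, with a sum of 1499 to 1566 CPM in shNC and 1765 to 1795 CPM in shDDX21. Of 4 macrophage markers 3 fell (47.4 to 55 CPM in shNC, 34.6 to 36.6 CPM in shDDX21). Of 8 endothelial and stromal markers 5 fell and 2 rose (1595 to 1632 CPM in shNC, 1435 to 1456 CPM in shDDX21). Mast cell markers had 1 of 4 lower and hepatocyte markers 1 of 2 lower. For both species these values stand beside the changes in BCL2, BCL2L11 and the other members without separating one from the other.

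Several members share exon bases with a neighbouring gene, and whether reads were counted by strand is not given in the sources used here. Bid shares 17.7% of its exon length with Bcl2l13 on the other strand, which had 5638 to 6498 counts per library. Bad shares 20.5% with Gpr137 (86 to 159 counts) and Bak1 18.2% with Ggnbp1 (14 to 30 counts), and BCL2L1 shares 41.3% with ABALON, which had 16 to 29 counts. BCL2L11 shares 10.4% with MIR4435-2HG, at 2216 to 3052 counts, and BAD 23.7% with GPR137, at 278 to 311 counts. Bax shares 12.2% with Gm45808 (0 to 1 counts) on its own strand, which counting by strand would not separate. BAK1 shares 10.3% with GGNBP1 (5 to 22 counts) and PMAIP1 9.97% with an unnamed gene (0 to 2 counts). MCL1 shares up to 5.27% with 1 neighbour and 0.691% with ADAMTSL4 (2357 to 3844 counts). Without strand, reads from overlaps on the other strand cannot be told apart. The values of Bid, Bad, Bak1, BAD, BCL2L11 and BCL2L1 are therefore less certain, as are those of Bax, BAK1, PMAIP1, MCL1 and others with smaller overlaps. BCL2L1 has the largest overlap, and the low counts of ABALON do not show how reads on the shared bases were counted.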

How the data were processed

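Polyadenylated RNA was sequenced in 12 libraries, 3 per group. The authors deposited whole-number read counts per gene with exon lengths, and a second table of normalized values (a signal, equal to the count over 1 constant per library within 4.97e-10) with their log2 over the mean of the controls, per the file headers; the second was used for symbols only. Per the submitters' processing notes, STAR, featureCounts and DESeq2 were used with mm10 and hg38; versions and the strand setting are not given in the sources used here. Of mouse identifiers, 99.5% were in GENCODE M21.

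Counts were tested in each experiment with edgeR 4.0.16 in R 4.3.3 (filterByExpr, TMM, quasi-likelihood test, two-sided, Benjamini-Hochberg over all genes tested). SE is the size of the log2 change divided by the root of its F statistic. The difference between experiments was an interaction term over genes matched by symbol. An exact permutation test of 3 against 3 cannot go below 0.1. The procedure was tested on simulated data without a GC trend between libraries, so that test does not bear on the trend in the mouse.

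The members and lists were chosen with earlier results of these data known. Named beyond the members are DDX21, Cdkn1a, Mdm2, Mdm4 and, per list and experiment, up to 3 called genes with the smallest p and a mean of at least 1 CPM; a few genes the rule names are not reported here. Alternatives were other scaling (RLE, upper quartile, total counts), other filters, DESeq2 1.42.0, a 2-fold cutoff, a replicate block and each library left out. Added after seeing the data were a GC offset (lowess, span 0.3) and a fit of 4 mouse libraries.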

Additional observations from a re-analysis of the deposited data

Results flagged for a closer look

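Of the 10 members, 6 had effects that differed between the mouse and the human experiment by the interaction test (mouse minus human, log2 scale). PMAIP1 differed by 3.06, BCL2 by 2.29, BID by 0.56 and MCL1 by 0.30, the mouse effect being the higher one. BAK1 differed by -1.13 and BCL2L11 by -0.45, the human effect being the higher one. All 6 kept their direction and their call in each of the 17 alternatives tried, with PMAIP1 between 2.98 and 3.16, BCL2 between 2.22 and 2.39, BAK1 between -1.28 and -0.93, BID between 0.51 and 0.66, MCL1 between 0.27 and 0.40 and BCL2L11 between -0.48 and -0.36. Of all matched genes 56.2% differed in the same fit.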

How the results depend on the processing

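In the mouse, Pmaip1, Bcl2l1, Mcl1 and Bid kept direction and call in every alternative but the 2-fold cutoff, which Pmaip1 passed. Bax lost its call in 2 of 18 alternatives, both with 1 library left out, and Bcl2l11 in 8 besides the cutoff. In the human cells all calls were kept except that of MCL1 with upper-quartile scaling, and at the 2-fold cutoff BCL2 alone was kept. Bbc3 was not tested under a minimum of 10 counts in every library. Causes were not tested.

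The 2-fold cutoff left 1354 mouse genes (1085 higher, 269 lower) and 1450 human genes (676 higher, 774 lower), with 2 members higher and 0 lower in the mouse and 0 higher and 1 lower in the human cells. Of all genes tested that was 9.08% in the mouse (7.27% higher, 1.8% lower) and 7.18% in the human cells (3.35% higher, 3.83% lower). By list it left 1 apoptosome or caspase gene, 0 caspase inhibitors, 0 other relatives, 2 transcription factors and 0 turnover genes in the mouse, and 1, 4, 0, 1 and 1 in the human cells, with 0 channel genes there. Members called lower in the mouse numbered 2 with the GC offset, alone or with the block or 4 libraries, with 4 libraries alone and with no filter, and 0 with total counts or upper-quartile scaling. The share of all genes called lower moved too, from 15.8% as reported. It was 18.8% with the GC offset, 19% with offset and block, and 19.2% with offset and 4 libraries. It was 19% with 4 libraries alone, 9.08% with no filter, 10.8% with total counts and 13.6% with upper-quartile scaling. Total counts gave 4 caspase inhibitors and moved the share of calls that were higher from 56.6% to 68.9% over all mouse genes. The GC offset with 4 libraries gave 1 caspase inhibitor and turned Bak1 to 0.0387. Channel genes numbered 3 with the GC offset (alone, with the block or with 4 libraries) and 1 with 4 libraries, no filter or the block. Other relatives numbered 4 with the GC offset and block and 1 with DESeq2, no filter or the block, and turnover genes 4 with DESeq2. Of all mouse genes, 44.7% were called with the GC offset, 44.2% with offset and block, and 43.7% with offset and 4 libraries. That share was 38.9% with 4 libraries alone, 34.7% with total counts, 34.6% with the block, 30.1% with DESeq2 and 19.2% with no filter. PMAIP1 turned to 0.0543 with upper-quartile scaling, and the BCL2L1 difference to 0.0606 with total counts and 0.118 with the GC offset.

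With 1 library left out, mouse genes called lower ranged from 1368 (without cKO replicate 3) to 2708, members lower from 0 to 2, other relatives from 1 to 4, caspase inhibitors from 1 to 3, transcription factors from 6 to 13, apoptosome and caspase genes from 5 to 9, turnover genes from 4 to 7 and channel genes from 0 to 1. The share of all mouse genes called lower ranged from 8.92% (without cKO replicate 3) to 17.8% (without cKO replicate 1). The share called in either direction ranged from 24.2% to 37.2%, in the same fits. PMAIP1 ranged from -0.0511 to 0.0164 and the BCL2L1 difference from -0.164 to 0.0641.

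Same-numbered deviations correlated at 0.45, -0.26 and 0.04 in the mouse and -0.02, -0.0014 and 0.0021 in the human experiment. In the mouse, WT replicate 3 correlated at 0.54 with cKO replicate 2 and at -0.56 with cKO replicate 1. The mouse deviations also hold the GC trend, so these values cannot decide whether replicate numbers pair the libraries. With the replicate block 5166 mouse and 10601 human genes were called, Bbc3 (adjusted p = 0.0389) and Bad (0.0478) passed and Bcl2l11 did not (0.057).

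Low counts limit the precision of Bbc3, which held 9 in WT replicate 3, although that library's total (21662927 counts) was not under that of WT replicate 2 (21116079), where Bbc3 held 34.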

Other observations

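Libraries of a group differed by unequal amounts. In the mouse, chi-square per degree of freedom over genes was 1.94 between WT replicates 1 and 2, 10.6 and 15.3 between those and WT replicate 3, 7.27 and 7.89 between cKO replicate 3 and cKO replicates 1 and 2, and 25.5 between cKO replicates 1 and 2. Every human pair within a group lay between 1.54 and 1.71. No pair was at 1, so all were counted as separate libraries.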
